A study of Mus musculus with 7 samples.

Results

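The H2 genes are the mouse genes of the major histocompatibility complex (MHC). They were taken as all genes whose array name starts with H2-, which gave 39 of the 35715 gene names on the array, measured by 53 of 55681 probes. They comprise 28 class I genes, 10 class II genes and H2-Ke6, which lies in the same region but encodes a hydroxysteroid dehydrogenase. RNA from whole liver of 7 untreated C57BL/6J mice was hybridised to 1-colour oligonucleotide arrays, 1 animal per array, at the age of 4 weeks. The mice of both groups carried Rbpj alleles flanked by loxP sites. The 4 Rbpj+/+ mice lacked the AlfpCre transgene (animals +/+_1155, +/+_1156, +/+_1024 and +/+_991). The 3 Rbpj-/- mice carried it (animals -/-_N3, -/-_N5 and -/-_2866) and their livers were cholestatic, which means that bile flow was impaired. AlfpCre is active in the liver lineage that gives rise to hepatocytes and bile duct cells, so blood-derived and endothelial cells keep Rbpj.

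Class I molecules consist of a heavy chain and beta-2 microglobulin. They display peptides from inside the cell to CD8 T cells and natural killer cells and occur on almost every nucleated cell. Class II molecules consist of an alpha and a beta chain. They display peptides from endocytosed protein to CD4 T cells and are made mainly by B cells, dendritic cells and macrophages, which in the liver include the Kupffer cells. The class I genes arose by repeated duplication, and many of them are so alike that a probe for one can take up RNA of another.

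Probe likeness is shown first, because it limits which gene a value can be credited to. All 46 H2 probes with design coordinates lie on chromosome 17 (mm9). Of the 23 tested class I probes, 11 shared a run of at least 15 identical bases with a probe of another H2 gene. The second probe of H2-K1 (chr17:34133984-34134043, minus strand) and the probe of H2-T23 shared 29 bases, which are in capitals.

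H2-K1, second probe: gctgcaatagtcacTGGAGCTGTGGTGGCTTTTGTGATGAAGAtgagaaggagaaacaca
H2-T23: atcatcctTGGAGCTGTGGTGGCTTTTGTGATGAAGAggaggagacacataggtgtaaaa

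The second probe of H2-Q10 (chr17:35610036-35610095, plus strand) and the second probe of H2-Q2 (chr17:35460007-35460066, plus strand) were identical at 45 of 50 aligned bases, with a common run of 19 bases in capitals.

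H2-Q10, second probe: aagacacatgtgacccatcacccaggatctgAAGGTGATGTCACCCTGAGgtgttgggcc
H2-Q2, second probe: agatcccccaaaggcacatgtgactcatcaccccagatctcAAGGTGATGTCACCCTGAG

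The first probe of H2-Q10 (chr17:35611449-35611508) matched that of H2-T3 at 52 of 60 bases. The probe of H2-Q7 and the second, dimmer probe of H2-K2 matched at 49 of 56 aligned bases. The first H2-K2 probe matched that of H2-Q7 at 28 of 29 aligned bases, with a common run of 19 bases. The run given for H2-K2 is that of its second probe. Only the runs common to each pair are given.

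H2-Q10 and H2-T3: TTGTGGAGGAAATAAATGGCAG
H2-K2 and H2-Q7: TCTCCTGTGACATCCAGAGCCCTCAGTT

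The design itself lists more than 1 RefSeq gene for 3 probes. The H2-Q8 probe also stands for H2-Q6, the H2-Q7 probe for H2-Q9 and a probe of H2-M10.3 for H2-M10.5. The probe named H2-T9 carries accessions that RefSeq now assigns to H2-T22. Values of H2-Q7, H2-Q8, H2-T9 and H2-M10.3 are therefore those of a pair or of a renamed gene.

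The stretches before the start sites were searched for motifs that are known from promoters of either class. Class I promoters are known for a kappa B site and an interferon-stimulated response element, and class II promoters for an X box followed by a Y box. The last 180 bases before the RefSeq start (GRCm38.p6) are given for 3 class I and 3 class II genes, with GGGATTCCC, TTTCACTTC, CTGATTGG and ATTGG in capitals on either strand. GGGATTCCC is the core of the kappa B site, TTTCACTTC is part of the interferon element and CTGATTGG is the Y box, which holds ATTGG.

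H2-D1, chr17:35262914-35263093, plus strand: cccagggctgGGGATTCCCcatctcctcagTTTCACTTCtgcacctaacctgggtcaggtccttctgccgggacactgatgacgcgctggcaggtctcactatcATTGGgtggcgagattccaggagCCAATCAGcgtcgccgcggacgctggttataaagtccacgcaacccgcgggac
H2-Q4, chr17:35379437-35379616, plus strand: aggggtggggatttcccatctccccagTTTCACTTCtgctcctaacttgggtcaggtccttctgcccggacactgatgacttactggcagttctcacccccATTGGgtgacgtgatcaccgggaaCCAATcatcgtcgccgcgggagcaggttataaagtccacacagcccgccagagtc
H2-Q10, chr17:35469909-35470088, plus strand: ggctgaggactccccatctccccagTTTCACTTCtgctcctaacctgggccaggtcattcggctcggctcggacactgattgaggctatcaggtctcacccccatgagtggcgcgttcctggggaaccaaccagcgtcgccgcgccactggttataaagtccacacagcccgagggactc
H2-Aa, chr17:34287824-34288003, minus strand: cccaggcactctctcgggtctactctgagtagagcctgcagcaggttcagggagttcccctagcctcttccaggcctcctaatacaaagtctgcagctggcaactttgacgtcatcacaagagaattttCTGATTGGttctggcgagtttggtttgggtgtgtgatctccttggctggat
H2-Eb1, chr17:34305687-34305866, plus strand: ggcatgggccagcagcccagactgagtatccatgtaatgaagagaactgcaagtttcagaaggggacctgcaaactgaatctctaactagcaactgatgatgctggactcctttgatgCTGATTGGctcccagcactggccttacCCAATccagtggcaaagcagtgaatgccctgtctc
H2-DMb1, chr17:34153011-34153190, plus strand: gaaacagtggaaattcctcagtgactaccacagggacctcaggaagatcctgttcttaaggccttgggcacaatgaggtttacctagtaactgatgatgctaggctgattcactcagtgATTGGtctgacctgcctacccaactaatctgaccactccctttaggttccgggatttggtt

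Over 250 bases before the start, GGGATTCCC was found in 3 of 19 class I genes with an entry (H2-D1, H2-K1 and H2-Q7) and TTTCACTTC in 6 (these genes and H2-M3, H2-Q4 and H2-Q10). Neither was found in the 8 class II genes with an entry. GGGATTCCC occurs in 0.301% and TTTCACTTC in 0.402% of all 32851 RefSeq promoter windows of this length. CTGATTGG was found in 4 of 8 class II genes (H2-Aa, H2-Eb1, H2-Eb2 and H2-Oa) and in 10 of 19 class I genes, against 3.83% of all windows. The shorter ATTGG was found in all 8 class II genes and in 16 class I genes, against 33.8% of all windows. A gene was counted if any of its windows held the motif. The H2-DMa window chr17:34122582-34122831 holds no ATTGG. In its other window (chr17:34125268-34125517) ATTGG lies at -198, farther from the start than in the other class II genes.

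Levels are log2 intensities relative to the 75th percentile of the same array, so 0 stands for a probe at that percentile. Differences are log2 fold changes of Rbpj-/- over Rbpj+/+. Testing required a signal well above background throughout 1 genotype or both. The 24547 probes that met this entered the limma fit. A probe passed if its p, adjusted by Benjamini-Hochberg over these probes, was below 0.1. Between 41.1% and 64.9% of probes were well above background per array, and animals +/+_1156 and -/-_N3 had the highest shares, with brighter dim probes. All arrays lay on 1 slide, with the Rbpj+/+ arrays in one row and the Rbpj-/- arrays in the other, so row and genotype cannot be told apart. The targeted gene Rbpj lay between 0.29 and 0.97 in Rbpj+/+ and between -0.78 and -0.35 in Rbpj-/- liver, which fits the labels.

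Of the 39 H2 genes, 25 were tested and 8 passed the threshold, 5 higher and 3 lower in Rbpj-/- liver. Among all 18770 tested genes 34.2% passed, 14.6% higher and 19.6% lower. The 2 classes had different counts. Of 5 tested class II genes, 4 were higher and none lower, with a median difference of 1.15. Of 19 tested class I genes, 1 was higher and 2 were lower, with a median of 0.0013. The median over all tested genes was -0.13. In class II the genotypes did not overlap in 2 genes, both higher in Rbpj-/- liver, and in class I they did not overlap in 3 genes with Rbpj-/- higher and 2 with Rbpj-/- lower. This happened in 15.4% of all tested genes with Rbpj-/- higher and in 21.2% with Rbpj-/- lower.

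**Figure D1:**
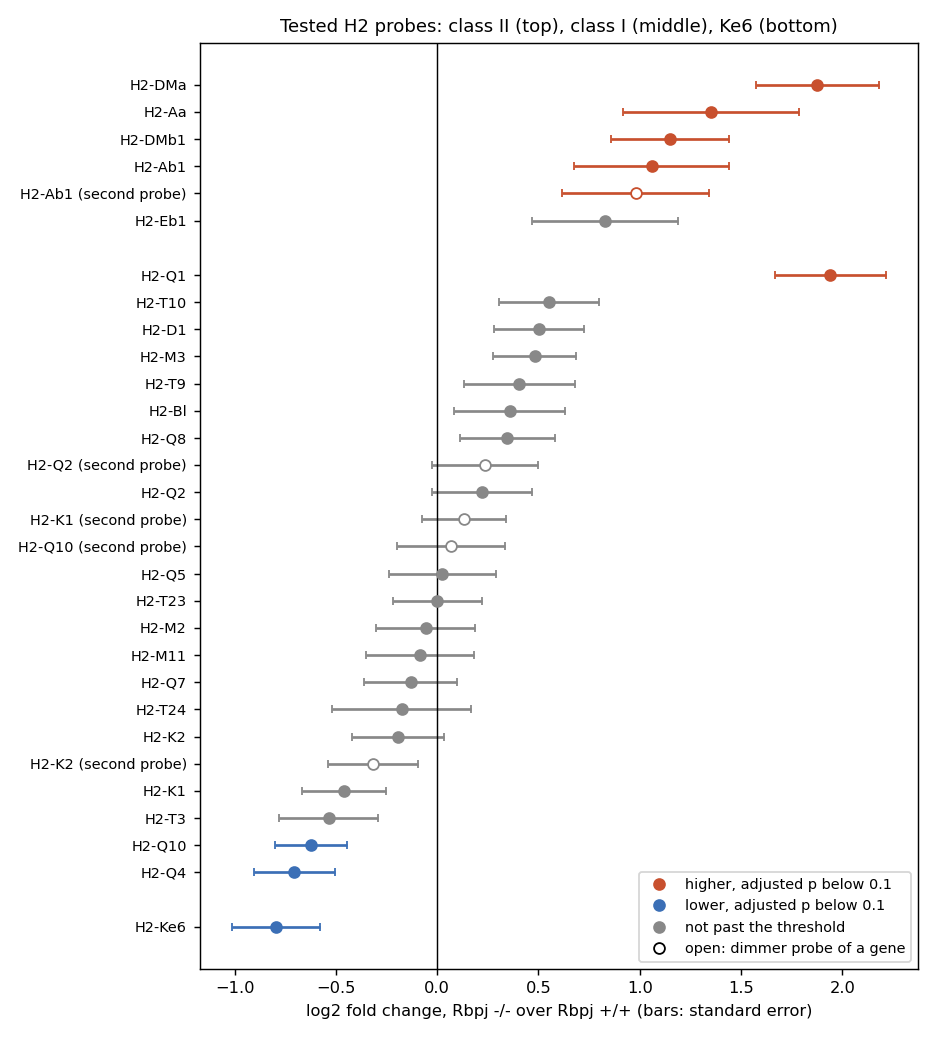
Log2 fold change of each tested H2 probe (horizontal axis, Rbpj-/- over Rbpj+/+, n = 3 and 4 animals, bars are standard errors), with class II genes on top, class I genes in the middle and H2-Ke6 at the bottom. Filled circles are the probe that represents a gene and open circles a dimmer probe of the same gene. All 6 class II probes lie to the right of 0, between 0.83 and 1.88, while the class I probes spread from -0.71 to 1.94.

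The classical class II genes encode the chains that present peptide at the cell surface. H2-Aa and H2-Ab1 form I-A, the only class II molecule that C57BL/6 mice display, since H2-Ea is not functional in this strain. The H2-Aa probe (chr17:34421285-34421344) gave levels of -1.24, -1.06, -1.09 and 0.48 in Rbpj+/+ animals +/+_1155, +/+_1156, +/+_1024 and +/+_991 and of 0.92, 0.03 and 0.92 in Rbpj-/- animals -/-_N3, -/-_N5 and -/-_2866. Animals +/+_1155, +/+_1156 and +/+_1024 were close together and below every Rbpj-/- liver, whereas +/+_991 was above -/-_N5. The difference was 1.35 ± 0.43 (SE, n = 4 and 3, limma adjusted p = 0.0531, exact permutation p = 0.0857).

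H2-Ab1, the partner chain, was measured by overlapping probes. The brighter one (chr17:34406296-34406355) gave 3.19, 3.55, 3.74 and 4.66 in the Rbpj+/+ animals, in the same order, and 4.89, 4.25 and 5.39 in the Rbpj-/- animals. Again animal +/+_991 overlapped with -/-_N5 and the other Rbpj+/+ livers were below all Rbpj-/- livers. The difference was 1.06 ± 0.38 (limma adjusted p = 0.076). The second probe, which covers nearly the same bases, gave 0.98 (limma adjusted p = 0.0828).

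H2-Eb1 encodes the beta chain of I-E. Its levels were 3.11, 3.50, 3.55 and 4.47 in the Rbpj+/+ animals and 4.70, 3.88 and 4.89 in the Rbpj-/- animals. The order of the livers was the same as for H2-Ab1. The difference of 0.83 ± 0.36 did not pass the threshold (limma adjusted p = 0.126). H2-Eb2 and the pseudogene H2-Ea-ps were not well above background on any array.

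H2-DMa and H2-DMb1 encode the chains of H2-DM, which removes the invariant chain fragment from class II molecules and edits their peptides. They were the class II genes whose genotypes did not overlap. H2-DMa levels were -2.48, -1.58, -2.20 and -1.25 in the Rbpj+/+ animals and 0.16, -0.19 and 0.03 in the Rbpj-/- animals. The Rbpj-/- livers were close together and above all Rbpj+/+ livers, a difference of 1.88 ± 0.30 or 3.67-fold (limma adjusted p = 0.00443, exact permutation p = 0.0286, the smallest that 35 assignments of the animals allow). With normexp, a model-based background correction tried as an alternative, it still passed, but the difference was 0.67 (limma adjusted p = 0.0111).

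H2-DMb1 (chr17:34297109-34297168) levels were 0.08, 0.73, 0.16 and 1.19 in the Rbpj+/+ animals and 1.77, 1.45 and 1.85 in the Rbpj-/- animals. The gap between the highest Rbpj+/+ liver, again animal +/+_991, and the lowest Rbpj-/- liver, again -/-_N5, was narrow. The difference was 1.15 ± 0.29 (limma adjusted p = 0.0238). The paralog H2-DMb2 was well above background on 1 Rbpj-/- array and on no Rbpj+/+ array, and was not tested. H2-Oa and H2-Ob form H2-DO, an inhibitor of H2-DM that B cells make. H2-Oa was well above background on 3 Rbpj+/+ and 2 Rbpj-/- arrays, with levels from -3.38 to -1.96 and from -5.47 to -1.88, so that the genotypes overlapped. None of the 3 H2-Ob probes was tested, and none was well above background on more than 2 arrays of a genotype.

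The calls of the classical class II genes changed when single animals were left out, while those of the DM genes did not. Without animal +/+_991, H2-Aa, H2-Ab1 and H2-Eb1 all passed (limma adjusted p = 0.00891, 0.0303 and 0.0481), and so they did without -/-_N5 (0.0666, 0.0735 and 0.0931). Without animal +/+_1155, +/+_1024, -/-_N3 or -/-_2866 neither H2-Aa nor H2-Ab1 passed (adjusted p from 0.108 to 0.23), and without +/+_1156 H2-Aa passed (0.0992) but H2-Ab1 did not (0.129). H2-DMa and H2-DMb1 passed whichever animal was left out. Without a filter on dim probes H2-DMb1 did not pass (adjusted p = 0.162), nor did H2-Aa and H2-Ab1, and with normexp correction the H2-Aa difference was 0.82. Without animals +/+_1156 and -/-_N3 together, an alternative chosen after seeing the data, H2-DMa and H2-DMb1 passed and H2-Aa and H2-Ab1 did not (adjusted p = 0.221 and 0.232).

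**Figure D2:**
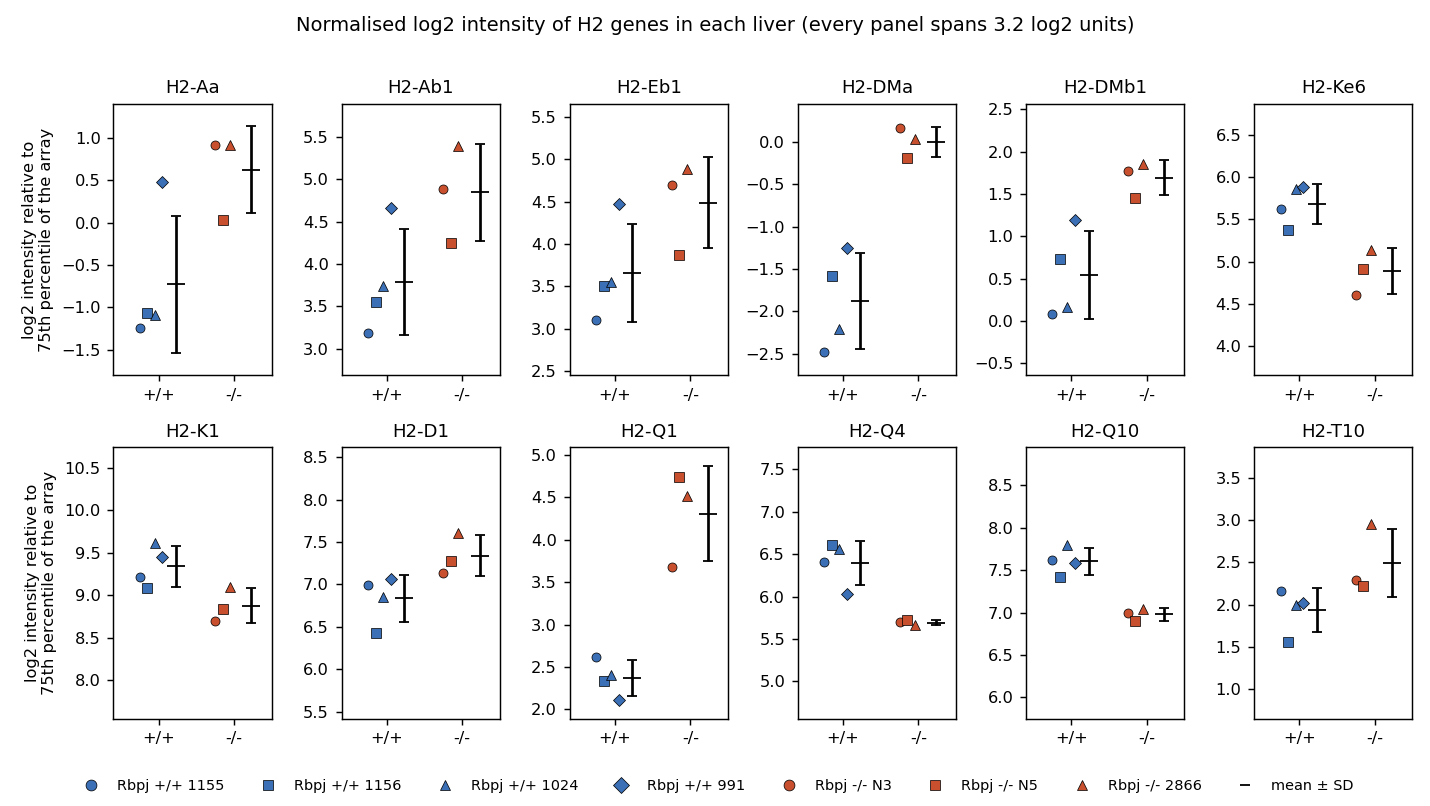
Normalised log2 intensity (vertical axis, relative to the 75th percentile of the array) of 12 H2 genes in 4 Rbpj+/+ (blue) and 3 Rbpj-/- livers (orange), with mean ± SD beside the points and a symbol for each animal. Every panel spans the same number of log2 units, so that distances but not heights can be compared between panels. Animal +/+_991 (blue diamond) is the highest Rbpj+/+ liver for all 5 class II genes, and -/-_N5 (orange square) the lowest Rbpj-/- liver.

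Class II genes were accompanied by part of their processing machinery. Of 7 tested genes of the class II chaperone and protease list, 3 rose and none fell, with a median of 0.92. Among all tested genes 14.6% rose and 19.6% fell. Ctss, encoding the protease cathepsin S that trims the invariant chain, rose by 1.87 ± 0.22 (limma adjusted p = 0.00135). Lgmn, encoding a lysosomal endopeptidase, rose by 1.60 and Ifi30, encoding a lysosomal thiol reductase, by 1.55. Cd74, the invariant chain itself, had levels of 2.29, 2.97, 3.09 and 3.93 in the Rbpj+/+ animals and 4.21, 3.43 and 4.34 in the Rbpj-/- animals. Its order of livers was that of H2-Ab1, and its difference of 0.92 ± 0.38 did not pass (limma adjusted p = 0.112). Of 5 genes for co-stimulation and related ligands, 4 rose, among them Icosl by 1.85 and Cd40 by 1.22. Under normexp background correction the value of Icosl was 1.07 and that of Cd40 was -0.14. Cd40 was well above background on 1 of the 4 Rbpj+/+ arrays and did not pass after quantile normalization (limma adjusted p = 0.148).

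Of 7 tested transcription factor genes that act on MHC promoters, 1 rose and none fell, against 14.6% and 19.6% of all tested genes. Ciita, the class II transactivator, differed by 0.41 ± 0.21 (limma adjusted p = 0.186), although its livers did not overlap. With normexp background correction its value was -0.22, and it was well above background on 2 of the 4 Rbpj+/+ arrays. Nlrc5, the class I transactivator, differed by -0.31 ± 0.29 (limma adjusted p = 0.456). The gene that rose was Nfya, which encodes a subunit of NF-Y, the factor that binds the Y box. It rose by 0.76 (limma adjusted p = 0.0259), but did not pass without animal -/-_N5 (0.101) or with normexp background correction, where its value was 0.25 (0.133).

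Markers of the cell types that make class II molecules moved in opposite directions. The counts below stand beside 14.6% of all tested genes that rose and 19.6% that fell. All 3 tested B cell markers fell, and Pax5 was not tested. Ms4a1 and Cd79a were well above background in all Rbpj+/+ livers but only in 1 and 2 of the 3 Rbpj-/- livers, so the size of their fall was not measured in full. Their fitted differences were -3.34 and -1.99, and -0.96 and -0.82 with normexp background correction. Cd79b, measured on all arrays, fell by 0.94 (limma adjusted p = 0.0926, and above 0.1 after quantile normalization and without animal +/+_1156, +/+_1024, +/+_991, -/-_N3 or -/-_N5). The summed B cell level ranged from 0.78 to 2.04 (log2) in Rbpj+/+ and from -0.38 to 0.64 in Rbpj-/- livers. Of 6 Kupffer cell markers 4 rose, led by Marco with 2.92 and Cd5l with 1.84. Clec4f and Timd4 differed by 0.57 and 0.54 and did not pass (limma adjusted p = 0.13 and 0.204). The summed level of the 6 markers went from between 6.32 and 6.78 to between 8.23 and 8.65. Most of the Rbpj-/- sum comes from Marco and Cd5l. Of 5 tested monocyte and macrophage markers 4 rose, led by Lyz2 with 2.85 and Ccr2 with 2.54 (1.76 and 0.97 with normexp correction), and Itgam fell by 1.54. Of 7 tested dendritic cell markers 3 rose and 1 fell, with a median of 0.39. Itgax rose by 1.62, which was 0.62 with normexp correction. Siglech, a marker of plasmacytoid cells, fell by 1.15, but as the mean of its tested probes it was at -0.68 and did not pass (limma adjusted p = 0.198). The summed dendritic level ranged from 5.16 to 5.68 in Rbpj+/+ and from 4.39 to 4.61 in Rbpj-/- livers. Nearly all of that sum is the Siglech probe, so its fall is that of 1 gene. All 3 general leukocyte genes rose, led by Ptprc with 1.32 (0.40 with normexp correction). Outside the cells that make class II molecules, 2 of 4 tested T and natural killer cell genes fell, 2 of 3 neutrophil genes, 2 of 4 bile duct genes and 1 of 4 endothelial genes rose, and 1 of 2 erythroid genes fell. The part of all these cell types in the H2 values was not tested. In whole liver a change in the number of cells of a type and a change in RNA per cell cannot be told apart.

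Within the Rbpj+/+ group, the livers at either end of the order were shared by class II genes, B cell markers and some macrophage and general leukocyte genes. Animal +/+_991 had the highest Rbpj+/+ level and animal +/+_1155 the lowest for each of the 5 tested class II genes. The same was true of Cd74 and of all 3 tested B cell markers. It also held for the Kupffer cell marker Vsig4 and the general leukocyte genes Coro1a and Laptm5, but not for Ptprc. Of the other Kupffer cell, monocyte and macrophage markers, Adgre1, Cd5l, Cd68, Csf1r, Lyz2 and Ccr2 were highest in +/+_991. Marco, Clec4f, Timd4 and Itgam were not. Of the dendritic cell markers, Itgax was highest in +/+_991, Siglech was lowest there, and Zbtb46 and Ccr7 were highest in +/+_1156. The order of Flt3, Clec9a and Cd209a is not given, since they were not well above background on all Rbpj+/+ arrays. In the Rbpj-/- group -/-_N5 was lowest for all 5 class II genes and for Cd79b, and -/-_2866 was highest for 4 class II genes and for the 3 B cell markers. The lowest Rbpj-/- liver is not given for Ms4a1 and Cd79a, which were not well above background there on all arrays. Between the genotypes 4 of the 5 class II genes rose and the 3 B cell markers fell. With 4 and 3 animals this order is a description, and its share among all tested genes was not counted.

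**Figure D3:**
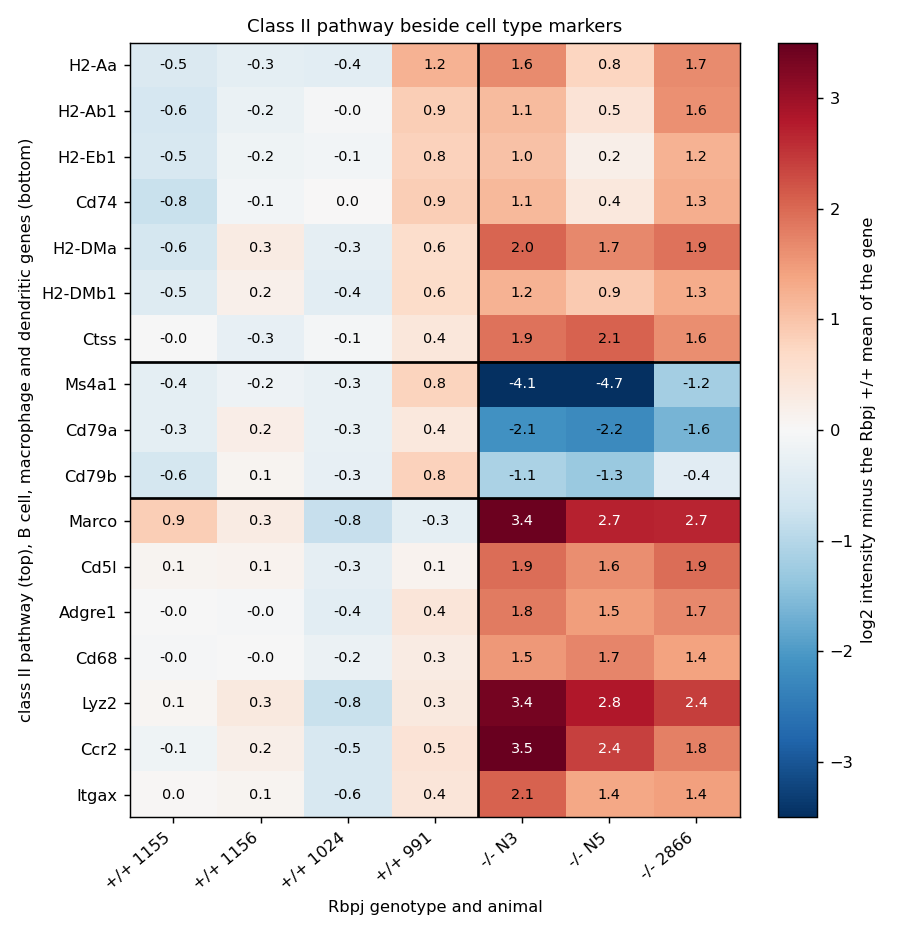
Log2 intensity minus the Rbpj+/+ mean of the same gene (colour and printed value) in each animal (columns, Rbpj+/+ on the left). Rows are class II pathway genes on top, B cell markers in the middle and macrophage and dendritic genes at the bottom. Animal +/+_991 is above the Rbpj+/+ mean for all class II and all B cell rows, B cell rows are below it in all Rbpj-/- livers and the macrophage rows shown are above it. The bottom rows are a selection from their lists. Itgam and Siglech, which fell, are not shown. The values of Ms4a1 in -/-_N3 and -/-_N5 and of Cd79a in -/-_N3 were not well above background, so they have no order.

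Class I genes showed no common direction. The classical genes H2-K1 and H2-D1 encode the K and D molecules that present peptide to CD8 T cells. The first H2-K1 probe (chr17:34133055-34133114) gave 9.21, 9.08, 9.62 and 9.45 in Rbpj+/+ animals +/+_1155, +/+_1156, +/+_1024 and +/+_991 and 8.70, 8.84 and 9.10 in Rbpj-/- animals -/-_N3, -/-_N5 and -/-_2866. The lowest Rbpj+/+ liver, +/+_1156, was just below the highest Rbpj-/- liver. The difference was -0.46 ± 0.21 (limma adjusted p = 0.137), and it was 0.07 after quantile normalization and 0.09 in the series matrix. Without animal +/+_1156 it was -0.55 and passed (limma adjusted p = 0.078).

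The second H2-K1 probe, the one that shares a run with H2-T23, gave 0.13 ± 0.21 (limma adjusted p = 0.664). The difference between the H2-K1 probes within each array does not depend on scaling between arrays. Relative to its Rbpj+/+ mean it was -0.26, 0.08, 0.29 and -0.10 in the Rbpj+/+ animals and -0.66, -0.53 and -0.59 in the Rbpj-/- animals. The genotypes did not overlap, and the first probe changed by 0.60 less than the second (exact permutation p = 0.0571, two-sided, or 0.19 after Benjamini-Hochberg adjustment over 5 such pairs).

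H2-D1 (chr17:35403886-35403945) levels were 6.99, 6.43, 6.85 and 7.06 in the Rbpj+/+ animals and 7.13, 7.28 and 7.60 in the Rbpj-/- animals. All Rbpj-/- livers were above all Rbpj+/+ livers by a small margin. The difference was 0.50 ± 0.22 (limma adjusted p = 0.131). It passed after quantile normalization, where it was 0.81 (limma adjusted p = 0.0169), and in the series matrix, where it was 0.82. H2-T10, a non-classical gene whose product binds some gamma delta T cell receptors, also did not overlap, with a difference of 0.55 ± 0.25 (limma adjusted p = 0.133).

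H2-Q1 was the only class I gene that rose. Its probe (chr17:35461859-35461918, plus strand) gave 2.62, 2.33, 2.41 and 2.12 in the Rbpj+/+ animals and 3.68, 4.74 and 4.51 in the Rbpj-/- animals. The genotypes were far apart, and -/-_N3 was the lowest of the Rbpj-/- livers. The difference was 1.94 ± 0.27 or 3.84-fold (limma adjusted p = 0.00262, exact permutation p = 0.0286). It passed under all 18 alternatives, with differences from 1.73 to 2.25. Its order of livers was not that of the class II genes, since animal +/+_991 was the lowest of the Rbpj+/+ livers. The probe shares no run of 15 or more bases with a probe of another H2 gene, and its accessions match H2-Q1 alone. By design coordinates the second H2-Q2 probe (chr17:35460007-35460066, plus strand) lies closer to the H2-Q1 probe than to the first H2-Q2 probe (chr17:35482113-35482172). That second probe changed by 0.24 (limma adjusted p = 0.538). Which gene it measures was not tested.

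H2-Q4 and H2-Q10 fell. H2-Q4 (chr17:35521294-35521353) levels were 6.40, 6.60, 6.56 and 6.03 in the Rbpj+/+ animals and 5.70, 5.72 and 5.66 in the Rbpj-/- animals. The Rbpj-/- livers were almost identical and below all Rbpj+/+ livers. The difference was -0.71 ± 0.20 (limma adjusted p = 0.0351). It was -0.48 after quantile normalization (limma adjusted p = 0.199) and -0.46 with normexp correction, and without animal -/-_N5 the adjusted p was 0.102.

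H2-Q10 encodes a soluble class I molecule that hepatocytes secrete into the blood. Its first probe gave 7.62, 7.41, 7.80 and 7.58 in the Rbpj+/+ animals and 6.99, 6.90 and 7.05 in the Rbpj-/- animals. The genotypes did not overlap, with a difference of -0.62 ± 0.18 (limma adjusted p = 0.0367). It was -0.31 after quantile normalization and -0.27 with normexp correction, and did not pass in either (limma adjusted p = 0.183 and 0.121). Without animal +/+_1024 or -/-_N5 the adjusted p was 0.102 or 0.127. Hepatocyte markers fell alongside. Of 5 tested, 4 fell, against 19.6% of all tested genes, led by Serpina1a with -0.83 and Apoa1 with -0.83. After quantile normalization these were -0.09 and -0.43 and neither passed (limma adjusted p = 0.612 and 0.21). Apoa1 also did not pass without +/+_1024, -/-_N3 or -/-_2866. The summed hepatocyte level went from between 11.58 and 11.93 to between 10.78 and 11.05. The part of these markers in the H2-Q10 value was not tested.

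The second probe of H2-Q10, printed above with its H2-Q2 counterpart, gave a different picture. Its levels were 6.03, 4.98, 5.49 and 5.58 in the Rbpj+/+ animals and 5.39, 5.51 and 5.87 in the Rbpj-/- animals, so that the genotypes overlapped. The difference was 0.07 ± 0.27 (limma adjusted p = 0.867), next to 0.24 for the H2-Q2 probe that resembles it. Within arrays the first probe changed by 0.69 less than the second (exact permutation p = 0.0857, or 0.19 after adjustment over the 5 pairs). H2-T3, whose probe resembles the first H2-Q10 probe, had levels of 1.26, 0.71, 0.81 and 0.79 in the Rbpj+/+ animals and 0.75, -0.06 and 0.38 in the Rbpj-/- animals. Its difference was -0.54 ± 0.24 (limma adjusted p = 0.142), and without animal -/-_N3 it passed (0.0953). A further H2-T3 probe was well above background on 1 Rbpj-/- array only, another on no array, and neither was tested. Which share of the H2-T3 signal is RNA of H2-Q10 was not tested.

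The remaining class I genes did not pass the threshold. H2-Q7 and H2-Q8, named above with their doubles, differed by -0.13 and 0.35. H2-Q2 differed by 0.22 and 0.24 on its probes and H2-Q5 by 0.03. H2-T23, the mouse Qa-1 molecule read by natural killer receptors, differed by 0.0013, with a standard error of 0.22. H2-T9 differed by 0.40 and H2-T24 by -0.18. H2-M3, which presents formylated bacterial peptides, differed by 0.48 ± 0.20 (limma adjusted p = 0.119), and H2-M2 and H2-M11 by -0.06 and -0.08. The tested H2-M2 probe had an Rbpj+/+ mean of 4.72. A second H2-M2 probe, with an Rbpj+/+ mean of -5.31, was well above background on 1 Rbpj-/- array only. A second H2-T24 probe was well above background on 1 array of each genotype. Neither second probe was tested. Which RNA the brighter H2-M2 probe measures was not tested. The pseudogene H2-K2 differed by -0.19 and -0.32 on its probes, and H2-Bl by 0.36. The directions of H2-K2 and H2-Q7 turned with quantile normalization, and that of H2-M2 did too.

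Class I probes can also be divided by likeness. The 12 tested probes that share no run of 15 bases with a probe of another H2 gene ranged from -0.71 to 1.94, and 2 of them passed. The 11 probes that share such a run ranged from -0.62 to 0.35, and 1 passed. Only probes were compared with each other, not whole transcripts, so a probe without such a run need not be specific to its gene. The part of shared RNA in these ranges was not tested.

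The other 9 class I genes were not tested because of low signal. These are H2-M1, H2-M5, H2-M9, H2-M10.1, H2-M10.2, H2-M10.3, H2-M10.4, H2-M10.6 and H2-T18. The M10 genes are known from sensory neurons of the vomeronasal organ. None of these 9 was well above background on more than 1 array of a genotype, so a difference could not be measured at this signal.

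The partners of class I molecules were also examined. Of 13 tested genes for class I assembly and peptide supply, none rose and 2 fell, with a median of -0.08. Among all tested genes 14.6% rose and 19.6% fell. B2m, encoding beta-2 microglobulin, had levels of 8.18, 7.85, 8.38 and 8.34 in the Rbpj+/+ animals and 7.58, 7.52 and 7.78 in the Rbpj-/- animals. The genotypes did not overlap, with a difference of -0.56 ± 0.20 (limma adjusted p = 0.0734), which was -0.20 after quantile normalization (limma adjusted p = 0.346). Calr, a chaperone of class I assembly, fell by 0.60 (limma adjusted p = 0.054), and after quantile normalization its value was -0.39 (0.107). With normexp correction neither passed. Of the 7 animals, +/+_1156 was the only one that could be left out with B2m and Calr still past the threshold. The peptide transporter genes Tap1 and Tap2 differed by 0.42 and -0.15, and Tapbp, encoding tapasin, by 0.17. The immunoproteasome genes Psmb8 and Psmb9 differed by 0.63 and 0.06. None of these 5 passed the threshold. Psmb8 did under 7 of 18 alternatives, among them normexp correction, quantile normalization, series matrix values and leaving out animal +/+_991.

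Interferons can raise both classes, so a list of interferon response genes was examined. Of 19 tested, 4 rose and 5 fell, with a median of -0.19, where 14.6% of all tested genes rose and 19.6% fell. The chemokine gene Cxcl10 rose by 1.98 and Cxcl9 fell by 2.38. Irf1, a transcription factor that binds class I promoters, differed by 0.16 (limma adjusted p = 0.596). The Ifng probe was not tested. Of 8 tested class I-like genes outside the H2 region 1 rose and 1 fell. Procr, encoding the endothelial protein C receptor, rose by 1.52 (0.83 with normexp correction), and Azgp1, encoding a secreted class I-like protein, fell by 0.78.

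H2-Ke6 is the H2 gene that belongs to neither class. Its levels were 5.62, 5.37, 5.86 and 5.88 in the Rbpj+/+ animals and 4.60, 4.92 and 5.14 in the Rbpj-/- animals. All Rbpj-/- livers were below all Rbpj+/+ livers. The difference was -0.80 ± 0.22 (limma adjusted p = 0.0311). With normexp correction it was -0.52, and without animal -/-_N3 it was -0.65 and did not pass (limma adjusted p = 0.109).

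**Figure D4:**
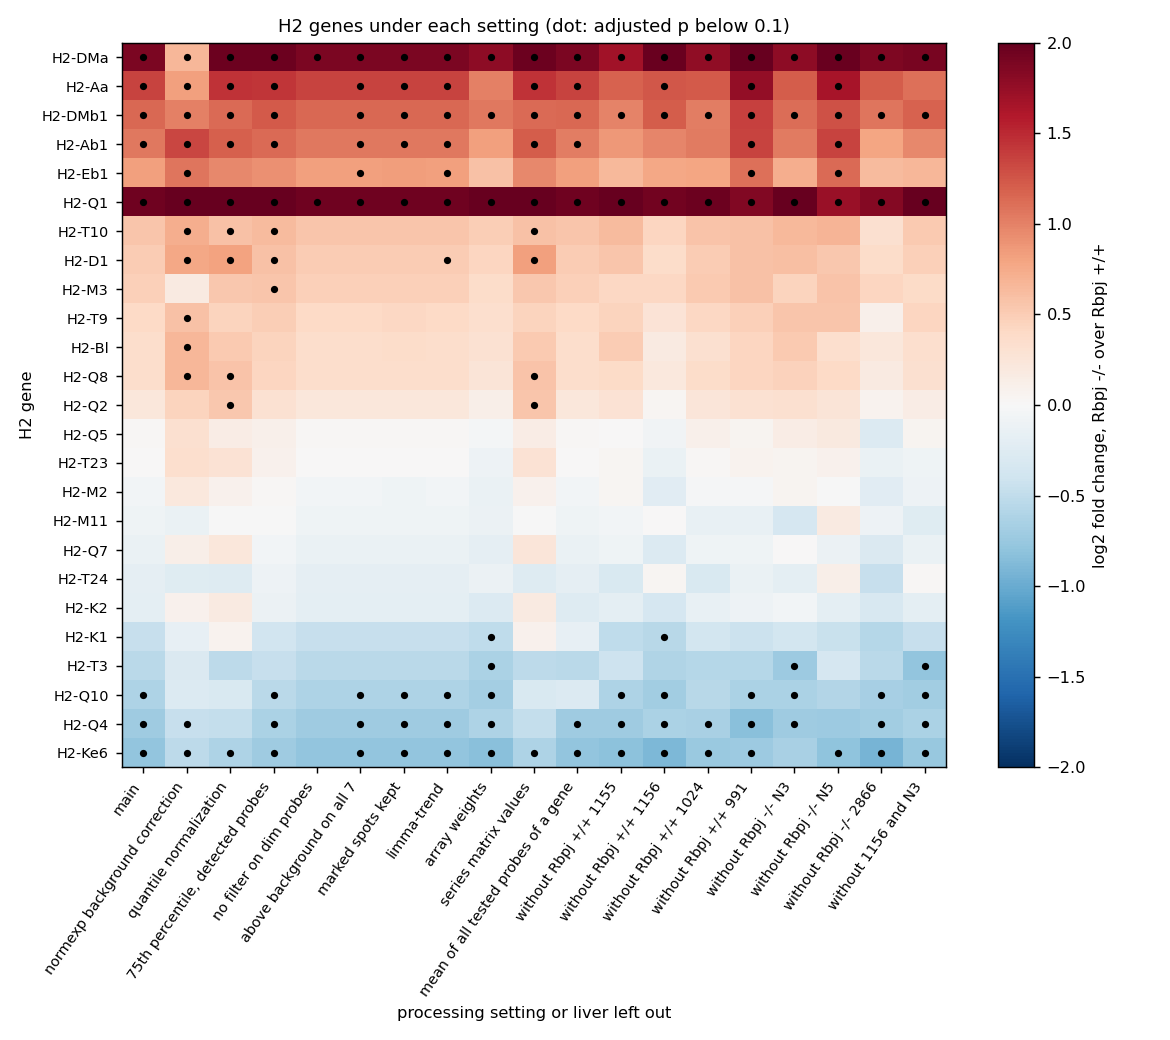
Log2 fold change (colour) of each tested H2 gene (rows) under the main setting and each alternative or left-out animal (columns), where a dot marks an adjusted p below 0.1. H2-DMa and H2-Q1 have a dot in every column, whereas H2-D1, H2-T10, H2-Q8 and H2-Q2 gain one and H2-Q4 and H2-Q10 lose one under quantile normalization.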

How the data were processed

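RNA of 4 Rbpj+/+ and 3 Rbpj-/- livers was hybridised singly. As deposited, the intensity values are spot signals after background subtraction and detrending, which the authors produced with Agilent Feature Extraction 10.7.3.1. They are not normalized between arrays. The deposited series matrix holds log2 values that the authors normalized from these signals. From the intensities, log2 means per probe were formed without spots that carry a non-uniformity or population outlier mark (146 probe values dropped) and expressed relative to the 75th percentile of their array. The genotypes were compared in limma 3.58.1 (R 4.3.3) in place of the shrinkage t of the methods. The brightest tested probe represented a gene. An exact permutation test (two-sided) was added for single genes. Python 3.11.15, pandas 2.3.3 and matplotlib 3.10.9 produced tables and figures. The number of arrays limits the precision. The steps were tested on simulated data.

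Probe accessions matched a RefSeq gene for 46 of 53 H2 probes. Probe coordinates are those of the design (mm9), promoters are from RefSeq (GRCm38.p6). The members and gene lists were chosen with earlier results of these data known. All H2 genes are named. Values per animal are given for classical class I, tested class II and called genes and for genes whose tested probes disagree. A fixed set of pathway genes and the 2 genes with the largest change in each other list were also covered, not all with values. Some listed genes are not reported here. Alternatives were normexp (offset 50), quantile normalization, a percentile over detected probes, 2 other filters on dim probes, marked spots kept, limma-trend, array weights, a stricter threshold of 0.05, series matrix values, probe means per gene, each animal left out, and +/+_1156 with -/-_N3 left out.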

Additional observations from a re-analysis of the deposited data

Results flagged for a closer look

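In the 4 Rbpj+/+ livers, a value was marked where its gap to the nearest other liver, as a share of the range of the group, exceeded the critical value of Dixon's test. This was checked for 70 genes named by the rule, and chance marks about 1 in 20 such groups. The 3 Rbpj-/- livers are too few to be checked. The check marked 4 genes, 2 of them H2 genes. H2-Aa was at 0.48 in animal +/+_991, far above the other Rbpj+/+ livers, and the B cell marker Ms4a1 was at -0.54 in the same animal, also far above the others. H2-Q7 was at 7.93 in animal +/+_1156, below the other Rbpj+/+ livers. The Kupffer cell marker Cd5l was at 4.83 in animal +/+_1024, below the others.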

How the results depend on the processing

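The 7 animals limit every value. No paired analysis was possible because the genotypes share no replicate numbers. The 4 called class II genes became 1 without a filter on dim probes and 2 with array weights, at a threshold of 0.05 and without animals +/+_1156 and -/-_N3 together. Leaving out 1 animal gave 2 to 5. The 3 called class I genes became 7 with normexp background correction, 5 with quantile normalization, array weights or the series matrix, 6 with the percentile over detected probes and 1 without a filter on dim probes, where 28 genes were tested. Leaving out 1 animal gave 1 to 4. Of these calls 5 were higher and none lower after quantile normalization, against 1 and 2 in the main setting. The 6412 calls over all genes became 1642 without a filter and 3720 to 7108 with 1 animal left out. They were 3115 higher and 2852 lower after quantile normalization, 3396 and 3244 with the percentile over detected probes, 968 and 674 without a filter and 3099 and 2807 in the series matrix, against 2741 and 3671. The cause was not tested.

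Signs turned only for genes that had not passed, with the exception of Cd40, at -0.14 with normexp correction. That setting also turned Ciita (-0.22), Tap2 (0.13), H2-K2 (0.085), H2-M2 (0.21) and H2-Q7 (0.11). Quantile normalization turned H2-K1 (0.074), H2-K2 (0.18), H2-M2 (0.088) and H2-Q7 (0.23), and the series matrix turned the same genes (0.092, 0.18, 0.090 and 0.24). The percentile over detected probes turned H2-M2 (0.024). Array weights turned H2-Q5 (-0.036), H2-T23 (-0.098) and Psmb9 (-0.082). Without animals +/+_1156 and -/-_N3, H2-T23 (-0.080), H2-T24 (0.021) and Psmb9 (-0.047) turned. With 1 animal left out, values ranged from -0.34 to 0.18 for H2-M11, -0.22 to 0.060 for H2-M2, -0.27 to 0.20 for H2-Q5, -0.28 to 0.0065 for H2-Q7, -0.14 to 0.088 for H2-T23, -0.46 to 0.12 for H2-T24 and -0.12 to 0.23 for Psmb9. Of 450 values of H2 genes under alternatives, 367 kept direction and side of the threshold, 29 lost a call and 27 gained one.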
